A study of Homo sapiens with 12 samples.

Results

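The ATP-binding cassette (ABC) transporter family was examined in lists of N4-acetylcytidine (ac4C) sites, an acetylated form of cytidine in RNA, from HK-2 cells, an established immortalised line of human renal tubular epithelial cells. Members were the genes whose name in the lists is ABCA, ABCB, ABCC, ABCD, ABCE, ABCF or ABCG followed by a number. The lists held 24 such genes among 10240 genes with a site, and 293 of their 100763 sites. In the assay, ac4C-RIP-seq, RNA is broken into fragments, those that an ac4C antibody binds are recovered on beads (IP), and both they and the unselected RNA (input) are sequenced. The 12 samples are 6 pairs of IP and input: 3 from HK-2 cells labelled NAT10 knockout (KO) and 3 from HK-2 cells labelled wild-type control (WT), with no treatment in the labels. The series text calls the same cells a knockdown, and nothing says whether they are 1 clone; the series title names renal fibrosis. NAT10 is the enzyme that places ac4C on RNA. Nothing in the labels says that replicates came from separate cultures, so p-values measure only the spread between these lists, which may be technical, and no batch is labelled, so batch and genotype cannot be told apart.

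ABC proteins bind and split ATP in paired nucleotide-binding domains, and most use that energy to move a substrate across a membrane. Subfamilies A and G carry mainly lipids, B holds the multidrug pump P-glycoprotein and several mitochondrial carriers, C holds the multidrug resistance proteins that export drug conjugates and organic anions, and D serves peroxisomes and lysosomes. Subfamilies E and F lack membrane-spanning domains and act on ribosomes and translation. In the proximal tubule, ABC pumps of the apical membrane move drugs and organic anions into the urine.

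The site lists of both genotypes were of similar length, with 13818 to 19136 sites per KO list and 15289 to 17541 per WT list. NAT10 itself held 2, 5 and 9 sites in KO lists and 11, 11 and 8 in WT lists, so the targeted transcript was not absent from KO lists. Sites with a false discovery rate over 50%, as the authors give it, made up 52.4% to 71.9% of ABC sites in KO lists and 85.3% to 88.4% in WT lists. Over all sites they made up 43.2% to 68.1% in KO and 91.9% to 92.8% in WT lists, so both sets differed between genotypes. Read counts are not part of the lists, so depth is unknown and sites are given without intervals. A list gives no transcript level either: a gene without a site may be little transcribed or little acetylated, and fewer cells or less RNA per cell cannot be told apart in such bulk samples. Of 10 proximal tubule markers, 5 had a site (LRP2, CUBN, GGT1, ANPEP and MME), and SLC34A1, SLC5A2, SLC22A6, SLC22A8 and AQP1 had none in any list. Of these 10, 2, 2 and 3 had a site in KO lists, against 4 in each WT list: LRP2 and MME had sites in all WT lists and no KO list (as did 11.8% of all genes), CUBN in KO replicate 3 alone, and ANPEP and GGT1 in all 6 lists. Of 5 epithelial markers, KRT18 had a site in all KO lists and no WT list (as did 14.9% of all genes), KRT8 in all 6 lists, KRT19 in WT replicate 2 alone, and EPCAM and CDH1 in none. Of 4 leukocyte markers, LYZ had a site in all 6 lists, and PTPRC, CD68 and CD3E had none in any list. Of 4 fibroblast markers, PDGFRB had a site in all 6 lists, and PDGFRA, THY1 and DCN had none in any list. The endothelial markers PECAM1, VWF and KDR had none. The part of the marked cell types in the results was not tested.

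The family held more sites in every KO list than in any WT list. ABC sites numbered 47, 64 and 63 in KO replicates 1, 2 and 3, against 42, 43 and 34 in WT replicates 1, 2 and 3. Means were 58 ± 9.54 in KO and 39.7 ± 4.93 in WT lists (SD, n = 3 each; two-sided exact permutation p = 0.1, the smallest that 3 lists against 3 allow). Comparisons between these lists cannot reach 0.05. As a share of all sites of a list, which takes list length into account, ABC sites made up 0.340%, 0.358% and 0.329% in KO lists, against 0.239%, 0.251% and 0.222% in WT lists. The shares did not overlap either, with a difference of 0.105 percentage points (exact permutation p = 0.1). The number of members with a site overlapped between genotypes: it was 17, 19 and 19 in KO lists, against 16, 17 and 14 in WT lists (difference 2.67 genes, exact permutation p = 0.2). As a share of all genes with a site in a list, however, members made up 0.254%, 0.248% and 0.241% in KO lists, against 0.221%, 0.237% and 0.208% in WT lists, without overlap (exact permutation p = 0.1). Sites per member were 3.15 ± 0.334 in KO and 2.53 ± 0.0982 in WT lists (exact permutation p = 0.1), whereas over all genes sites per gene were 2.28 ± 0.188 in KO and 2.36 ± 0.0798 in WT lists (exact permutation p = 0.7). The ABC sites of KO lists had a lower median fold of IP over input, as the authors give it. Their median was 7.71, 6.42 and 6.13 in KO lists, against 8.24, 8.42 and 8.965 in WT lists, without overlap (exact permutation p = 0.1). Over all sites the median fold was 7.025 to 7.8 in KO and 7.57 to 8.32 in WT lists, with overlap (exact permutation p = 0.3). Its mean was 7.35 in KO and 7.86 in WT lists, so it was lower in KO as well. Since depth is unknown, folds of different lists may not be on the same scale.

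**Figure D1:**
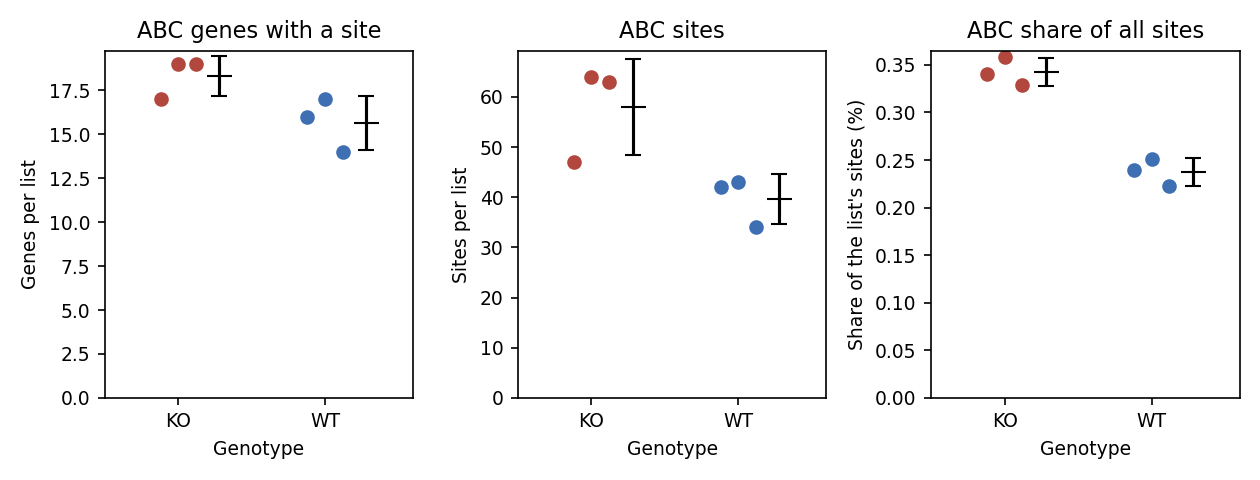
Number of ABC genes with a site, number of ABC sites and ABC share of all sites (vertical axes, from 0) in each KO and WT list (points), with the mean and SD of 3 lists beside them. All KO points lie above all WT points for sites and for their share, whereas the gene numbers 17 in KO replicate 1 and 17 in WT replicate 2 meet.

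Of 46 protein-coding ABC symbols in RefSeq, 24 had a site in at least 1 list; among all protein-coding symbols 49.7% had one. The 22 members without a site were ABCA5 to ABCA10, ABCA13, ABCB4, ABCB5, ABCB11, ABCC2, ABCC8, ABCC9, ABCC11, ABCC12, ABCD2, the read-through locus ABCF2-H2BK1, and all of subfamily G (ABCG1, ABCG2, ABCG4, ABCG5 and ABCG8). ABCC2 and ABCG2 encode apical efflux pumps of the tubule, and ABCC8 and ABCC9 regulatory subunits of potassium channels.

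By presence, 12 of the 24 members (50%) had a site in all 6 lists, against 39% of all genes with a site. A site in all KO lists and no WT list was found for 4 members, among them ABCA12, ABCB10 and ABCD3 (16.7%, against 14.9% of all genes). The reverse, a site in all WT lists and no KO list, was found for ABCB1 and ABCE1 (8.33%, against 11.8% of all genes). Presence in 1 genotype alone was therefore about as frequent in the family as among all genes. Every KO list exceeded every WT list in sites for 7 members (29.2%, against 23.7% of all genes), and every KO list lay below every WT list for 3 (12.5%, against 23.1%). The median difference of KO minus WT was 0.833 sites per list over the 24 members and 0 over all genes, with 14 members above 0, 9 below and 1 at 0.

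**Figure D2:**
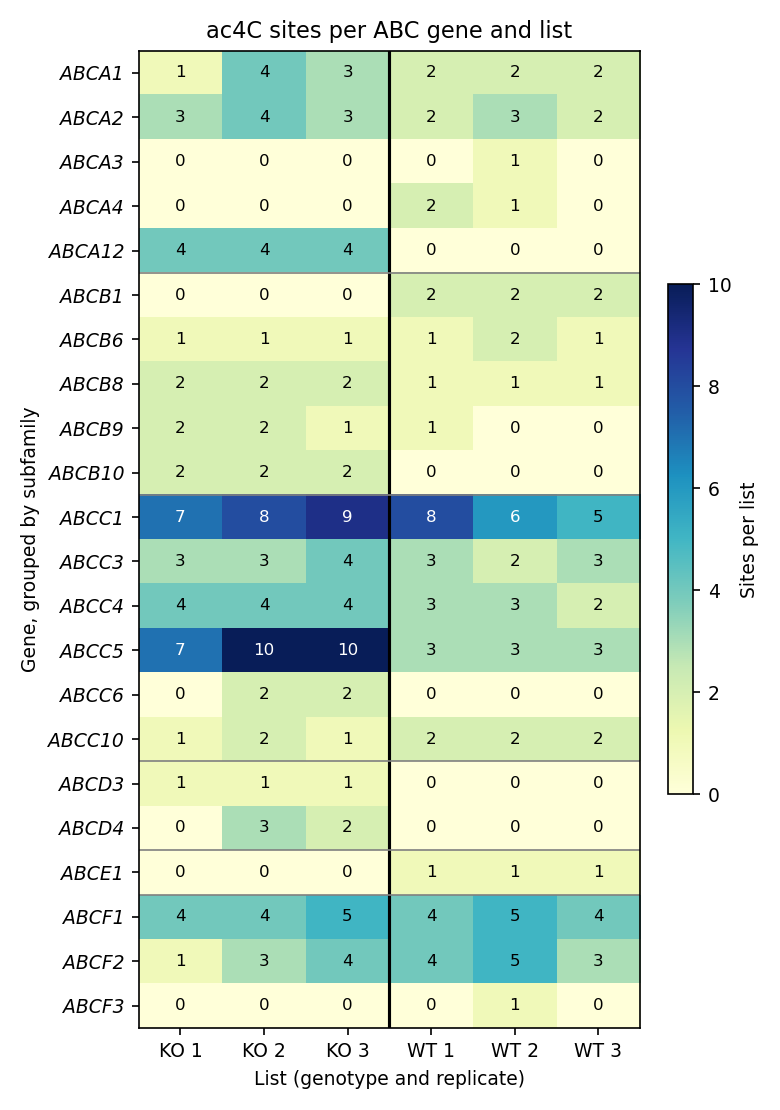
Number of ac4C sites of 22 of the 24 ABC genes (rows, by subfamily) in KO lists 1 to 3 and WT lists 1 to 3 (columns, separated by the vertical line), as digit and shade. ABCA12, ABCB10 and ABCD3 have sites in KO columns alone, ABCB1 and ABCE1 in WT columns alone, and ABCC5 has 7 to 10 sites in KO against 3 in WT.

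In subfamily A, the lipid transporters, 5 of 12 members had a site, with 8, 12 and 10 sites in KO lists and 6, 7 and 4 in WT lists (difference 4.33, exact permutation p = 0.1). ABCA12, which loads lipids into the lamellar granules of the epidermis, accounted for 4 sites in every KO list and none in any WT list. All 4 lay in the coding sequence (CDS), on chromosome 2 between 215865623 and 215976370. The authors' fold of IP over input was 1027, 1108 and 1070 in KO replicates 1, 2 and 3 at the site from 215928837 to 215928942, and 60.01 to 81.31 at the 2 sites nearest the 3' end. A site's fold is the authors' own value and is used here to describe and rank sites within a list. By fold ABCA12 had the highest rank of the family in KO lists, with its strongest site at a mean percentile of 99.8 within the lists.

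ABCA1, which exports cholesterol to apolipoprotein A-I, had 1, 4 and 3 sites in KO lists and 2 in each WT list (difference 0.667, exact permutation p = 0.7). Leaving out KO replicate 2 made that difference 0, and leaving out KO replicate 1 made it 1.5. The numbers overlapped and the positions did not. The 2 WT sites, in all WT lists, lay in the 3' UTR from 107545708 to 107545932 and in the CDS from 107558590 to 107558688 of chromosome 9. The 4 KO regions lay 5' of both, all in the CDS, and the nearest to a WT site was 30648 bases of genomic sequence away. Of these 4, the region from 107589337 to 107589450 was present in all KO lists, with folds of 3.93, 4.97 and 5.24. ABCA2, a lysosomal lipid transporter, likewise had 3, 4 and 3 sites in KO lists and 2, 3 and 2 in WT lists, at 5 regions with KO sites alone and 3 with WT sites alone. Its strongest KO site (139904221 to 139904355 of chromosome 9, CDS) had folds of 39.2, 28.7 and 31.9 in KO lists. ABCA4, the retinal transporter, had 2 sites in WT replicate 1 and 1 in WT replicate 2, and the one these lists share was 4 and 3 bases long. ABCA3, the surfactant lipid transporter of the lung, had 1 site in WT replicate 2.

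Subfamily B divided by gene. Its 6 listed members held 10, 10 and 9 sites in KO lists, against 5, 5 and 4 in WT lists (difference 5, exact permutation p = 0.1). ABCB1, which encodes P-glycoprotein, the multidrug efflux pump, had 2 sites in each WT list and no site in KO lists. One, on chromosome 7 at 87133607 to 87133765, covered the stop codon and had folds of 8.36, 4.92 and 5.46 in WT replicates 1, 2 and 3. The other lay in the CDS from 87135213 to 87135243, with folds of 18.8, 12.7 and 12.6.

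Sites of the mitochondrial members of subfamily B were in KO lists alone or in both genotypes. ABCB10, an inner membrane protein needed for heme synthesis in red cell precursors, had 2 sites in every KO list and none in WT lists. The ABCB10 pair differed between KO lists, since 1 region (229683345 to 229683448 of chromosome 1, CDS) was common to all and the second was 1 position in KO replicates 1 and 2 and another in KO replicate 3. ABCB8, a mitochondrial inner membrane transporter, had 2 sites in each KO list and 1 in each WT list, at different positions. The WT site of ABCB8 (150731831 to 150731916 of chromosome 7, CDS) had folds of 102.2, 63.4 and 128, among the highest of the family in WT lists, and lay 1714 bases from the nearer KO site. ABCB6, a porphyrin transporter, had 1 site in each KO list and 1, 2 and 1 in WT lists. The KO site lay in the CDS (220082847 to 220083175 of chromosome 2), and the site of all WT lists at the stop codon (220074703 to 220074768). WT replicate 2 also had a CDS site (220082392 to 220082529), 317 bases from the KO site. ABCB9, a lysosomal peptide transporter, had 2, 2 and 1 sites in KO lists, among them a start codon site in all KO lists, and 1 site, in the 3' UTR, in WT replicate 1.

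The gene ontology terms in the lists assign 9 of the 24 members to mitochondria, among them ABCA12, ABCB6, ABCB8, ABCB10, ABCD3, ABCE1 and ABCF2. Of these, 8 had a site in each KO list and 5 in each WT list, with 15, 18 and 19 sites in KO and 10, 12 and 9 in WT lists. Among all 1176 genes with a site and a mitochondrial term, 64.8%, 75.3% and 79.0% had a site in KO lists. In WT lists 73.6%, 72.6% and 69.5% of these 1176 genes had one. Of the 9, 4 had sites in each KO list but no WT list and 1, ABCE1, in each WT list but no KO list. Among all 1176 genes with a site and a mitochondrial term these were 12.3% and 11%, and no enrichment was tested. Of 12 members with a plasma membrane term, 8, 9 and 9 had a site in KO lists, against 9, 10 and 8 in WT lists. For 4 lysosomal members these numbers were 3, 4 and 4 against 3, 2 and 2. For 3 peroxisomal members they were 2, 3 and 3 against 1 in each WT list. Shares over all genes with these 3 terms were not computed.

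Subfamily C, the multidrug resistance proteins and their relatives, carried the most sites: 22, 29 and 30 in KO lists, against 19, 16 and 15 in WT lists (difference 10.3, exact permutation p = 0.1). ABCC5, an exporter of cyclic nucleotides and nucleotide analogues, had 7, 10 and 10 sites in KO lists, against 3, 3 and 3 in WT lists. Its difference was 6 sites, and the lists did not overlap (exact permutation p = 0.1). The difference was 2.67 with lists of equal length and 3.33 with sites of a score of at least 100, below the 4 of ABCA12 under both settings. No ABCC5 region held sites of both genotypes. The 3 WT sites clustered in the CDS on chromosome 3 between 183679304 and 183683289, with folds from 4.58 to 20.02. The 10 KO regions flanked that cluster on both sides over 66347 bases, from the 5' UTR (183735618 to 183735705, folds 9.25, 13.0 and 11.98) to the most 3' region, in the CDS (183669345 to 183669358, folds 8.86, 6.09 and 4.34), and 7 of them were found in all KO lists. The start codon annotation of 1 ABCC5 region in mid-gene (183689647 to 183689822) and the 3' UTR annotation of another (183704792 to 183705023) belong to alternative transcripts that the authors assigned.

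ABCC1, which exports glutathione and drug conjugates, had 7, 8 and 9 sites in KO lists and 8, 6 and 5 in WT lists (difference 1.67, exact permutation p = 0.3). Of its 16 regions, 7 held KO sites alone, 6 WT sites alone and 3 both. A site of 200 bases in the CDS (16215832 to 16216031 of chromosome 16) had the same start and end in all 6 lists, with folds of 20.4, 26.2 and 31.3 in KO replicates 1, 2 and 3, and 23.6, 32.9 and 22.9 in WT replicates 1, 2 and 3. Its stop codon region, from 16235030 to 16236865, was listed in all KO lists (folds 18.1, 14.8 and 15.5) and in no WT list.

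ABCC3, an exporter of bile acids and glucuronides, had 3, 3 and 4 sites in KO lists and 3, 2 and 3 in WT lists. Its CDS site on chromosome 17 from 48733193 to 48733369 was in all 6 lists, with folds of 14.6, 12.3 and 8.57 in KO lists, against 228, 165 and 210 in WT lists. A second CDS site (48735443 to 48735568) was in all KO lists and in WT replicates 1 and 3, with folds of 63.7 and 62.8 in KO replicates 2 and 3, against 20.4 and 24.8 in WT replicates 1 and 3. In KO replicate 1 an ABCC3 entry of the same length, with a fold of 88.4, could not be joined to coordinates. The second site thus ranked above the first in KO replicates 2 and 3, and below it in WT replicates 1 and 3. Another CDS site (48752992 to 48753127) had folds of 124, 75.4 and 112 in WT lists and was in no KO list.

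ABCC4, an apical exporter of cyclic nucleotides, urate and prostaglandins in the proximal tubule, had 4 sites in each KO list and 3, 3 and 2 in WT lists (exact permutation p = 0.1). A KO site (95847161 to 95847191 of chromosome 13) and a WT site (95847090 to 95847143), each in all 3 lists of its genotype, were 17 bases apart, the shortest distance in the family between regions held by different genotypes. ABCC10, another drug exporter, had 1, 2 and 1 sites in KO lists and 2 in each WT list. Its region over the start codon on chromosome 6 (43399489 to 43400282) was in all 6 lists. Its folds were 8.15, 11.58 and 17.78 in KO lists, against 29.79, 24.54 and 19.19 in WT lists. The KO sites ended at 43399774 and the site of WT replicate 3 began at 43399761, so these overlapped only at their ends. A second start codon region, of another transcript (43395706 to 43395877), was in all WT lists alone, with folds of 40.1, 27.7 and 30.7. ABCC6, the gene of pseudoxanthoma elasticum, had 2 sites in KO replicates 2 and 3 and none elsewhere. ABCC6 has the pseudogene copies ABCC6P1 and ABCC6P2, and the treatment of reads shared between copies is not stated, so its sites are uncertain. The same holds for ABCA3, ABCB10, ABCE1 and ABCF2, which also have pseudogenes of their name in RefSeq.

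**Figure D3:**
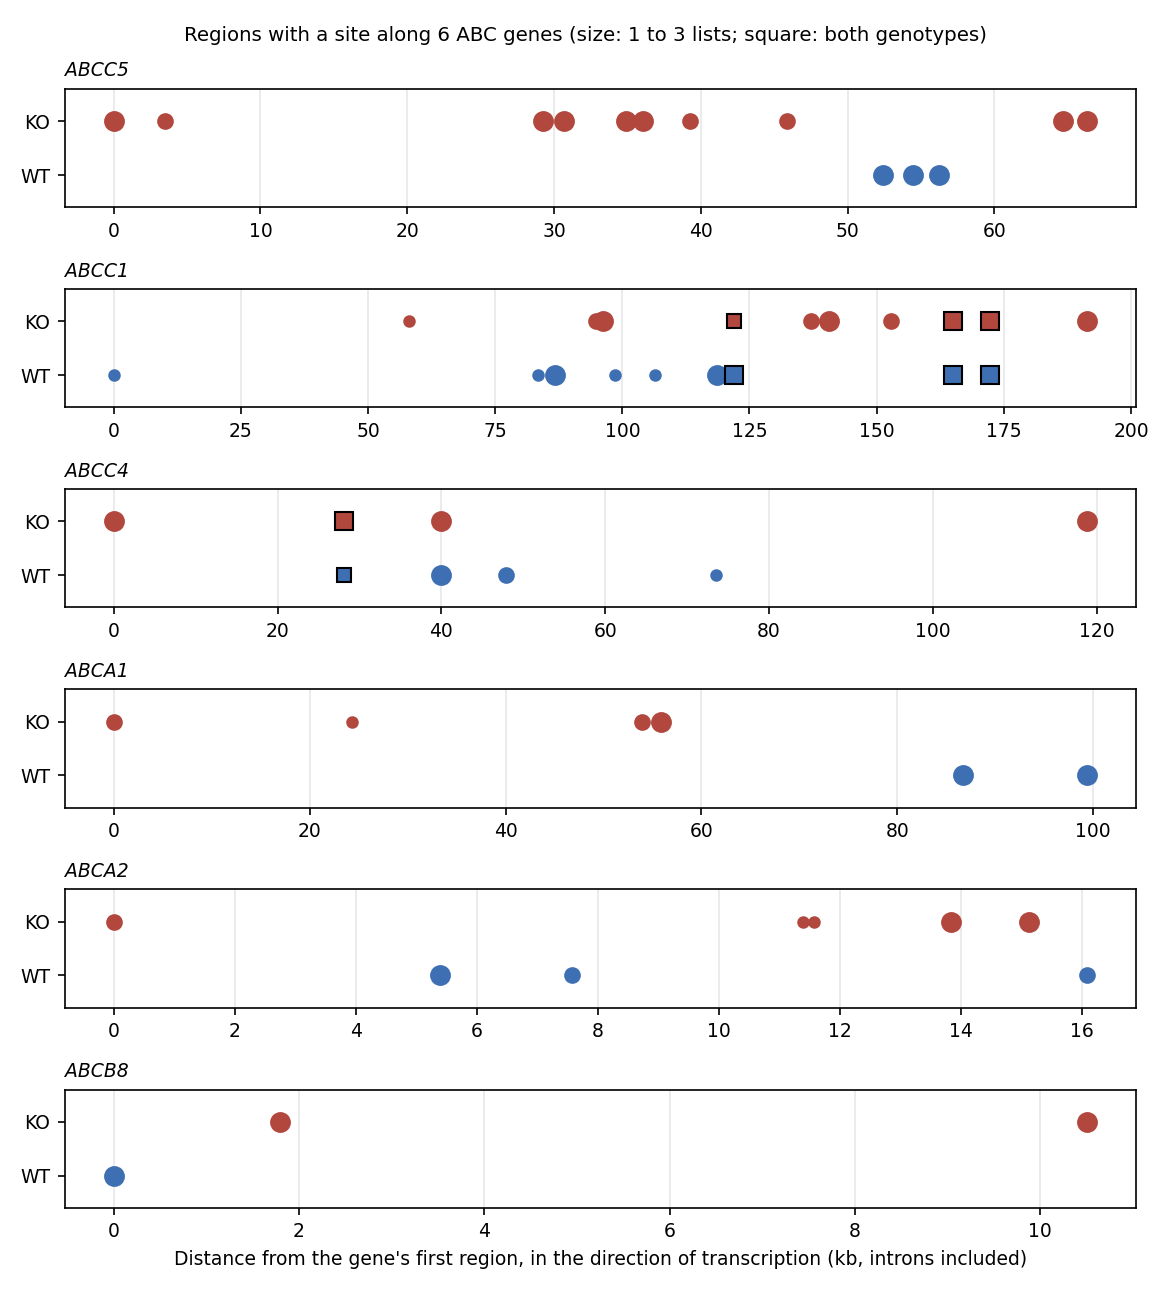
Regions with a site along ABCC5, ABCC1, ABCC4, ABCA1, ABCA2 and ABCB8, as distance in kilobases from the gene's first region in the direction of transcription (horizontal axis, introns included), for KO (upper row) and WT (lower row). Marker size gives the number of lists (1 to 3) and squares mark regions with sites of both genotypes. ABCC5, ABCA1, ABCA2 and ABCB8 have no square, ABCC4 has 1 such region and ABCC1 has 3.

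Subfamily D had 2, 6 and 5 sites in KO lists and 3 in each WT list (difference 1.33, exact permutation p = 0.4). ABCD3, a peroxisomal membrane protein that imports branched and dicarboxylic acids, had 1 CDS site in every KO list (94965051 to 94965170 of chromosome 1) and none in WT lists, with low folds of 2.37, 2.97 and 2.37. ABCD4, which exports cobalamin from lysosomes, had 3 sites in KO replicate 2, 2 in KO replicate 3 and none elsewhere.

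Among the members without membrane-spanning domains, ABCE1, which splits ribosomes after termination, had 1 CDS site of 24 bases in each WT list and no site in KO lists. It lay on chromosome 4 from 146026757 to 146026780, with folds of 5.85, 4.75 and 4.48. Subfamily F, whose members act in translation, had 5, 7 and 9 sites in KO lists and 8, 11 and 7 in WT lists (difference -1.67, exact permutation p = 0.5), the only subfamily with sites in all lists whose mean was lower in KO. ABCF1, which binds the initiation factor eIF2, had 4, 4 and 5 sites in KO lists and 4, 5 and 4 in WT lists, a difference of 0. Of its 7 regions 4 held sites of both genotypes, more than for any other member. A CDS site of ABCF1 found in WT lists alone (30548183 to 30548296 of chromosome 6) had folds of 377, 617 and 550, the highest rank of the family by fold in WT lists.

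ABCF2, a cytosolic relative, had 1, 3 and 4 sites in KO lists and 4, 5 and 3 in WT lists. Its region over the stop codon (150910606 to 150911277 of chromosome 7) was in all 6 lists, with folds of 28.6, 24.2 and 23.5 in KO lists, against 6.58, 6.21 and 7.47 in WT lists. ABCF3 had 1 site in WT replicate 2.

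The sites of the whole family merged into 109 regions. Of these, 30 (27.5%) held a site in all KO lists and no WT list, against 20.9% of all regions, and 22 (20.2%) in all WT lists and no KO list, against 21.8%. These counts were 20 and 21 with sites of a score of at least 100, and 22 and 20 with lists of equal length. The KO count thus did not exceed the WT count under the first and exceeded it by little under the second. Shares over all regions were not computed under these settings, so the counts cannot be read against them. A site in all 6 lists was found in 6 ABC regions (5.50%), against 8.07% of all regions. Sites of both genotypes, in any number of lists, were in 14 regions (12.8%), against 19.1% of all regions. Between lists of the same genotype, the Jaccard index (regions with a site in both lists over regions with a site in either) averaged 0.695 for ABC regions and 0.686 for all regions. Between a KO and a WT list it averaged 0.116 for ABC regions, in a range of 0.0928 to 0.141, and 0.161 for all regions, in a range of 0.148 to 0.175. Pairs of lists of 1 genotype shared 26 to 45 ABC sites with the same start and end, and pairs of different genotype 2 or 3.

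Of the 12 members with a site in all 6 lists, 5 had no region with sites of both genotypes: ABCA1, ABCA2, ABCB6, ABCB8 and ABCC5. That is 41.7%, against 25.4% of all genes with a site in all 6 lists. The 6 regions found in all lists lay in ABCC1 (2 regions), ABCC3, ABCC10, ABCF1 and ABCF2.

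**Figure D4:**
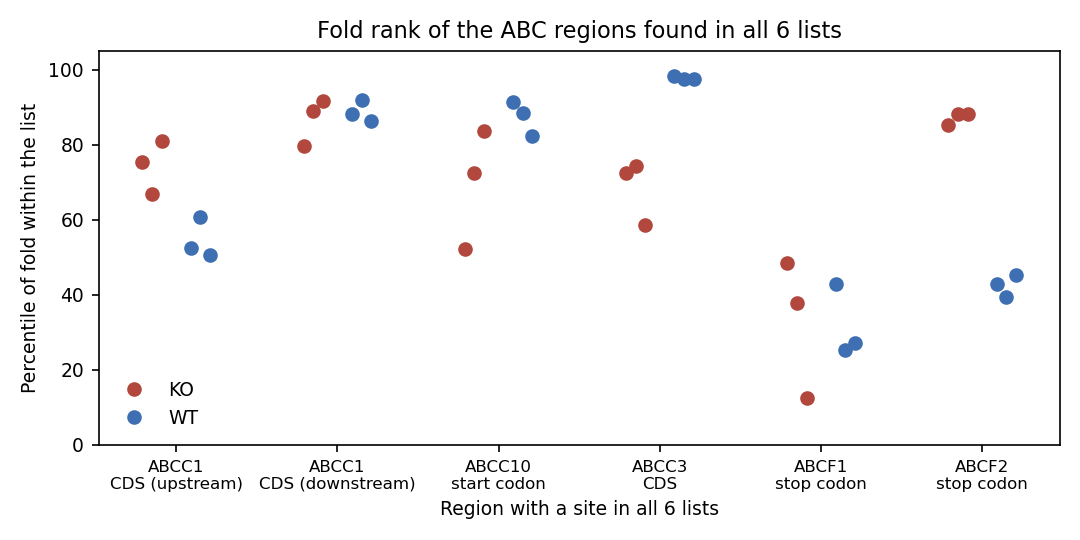
Percentile of the authors' fold among all sites of the same list (vertical axis) for the 6 ABC regions with a site in all 6 lists, with KO lists to the left and WT lists to the right of each label. The ABCC3 CDS region lies at 58.7 to 74.3 in KO and 97.5 to 98.3 in WT lists, the ABCF2 stop codon region at 85.3 to 88.2 in KO and 39.3 to 45.2 in WT lists, and ranks from lists of different lengths show no change by themselves.

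ABC sites lay in the coding sequence more often than sites in general. The CDS held 76.1%, 73.4% and 74.6% of ABC sites in KO lists, and 69.0%, 72.1% and 67.6% in WT lists, whereas over all sites it held 55.7% to 56.5% in KO and 56.0% to 57.1% in WT lists. The KO lists lay above the WT lists by 5.11 percentage points on average (exact permutation p = 0.1). Without the 6 members that have a pseudogene of their own name, a choice made after the data were seen, that difference was 0.949. Stop codons held 4, 5 and 6 ABC sites in KO lists and 6 in each WT list, which is 8.68% ± 0.856 of ABC sites in KO and 15.3% ± 2.04 in WT lists (exact permutation p = 0.1). Over all sites stop codons held 12.9% to 13.6% in KO and 13.5% to 13.8% in WT lists. The 5' UTR held 2, 3 and 2 ABC sites in KO lists, in ABCA2, ABCB9 and ABCC5, and none in WT lists. That is 3.17% to 4.69% of ABC sites in KO lists. Over all sites the 5' UTR held 6.91% to 7.24% in KO and 6.01% to 6.20% in WT lists, above the ABC share in both genotypes. The start codon held 9.20% ± 0.441 of ABC sites in KO and 10.2% ± 1.36 in WT lists (exact permutation p = 0.5), below the 14.3% to 14.96% of all sites in KO and 13.5% to 13.8% in WT lists.

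**Figure D5:**
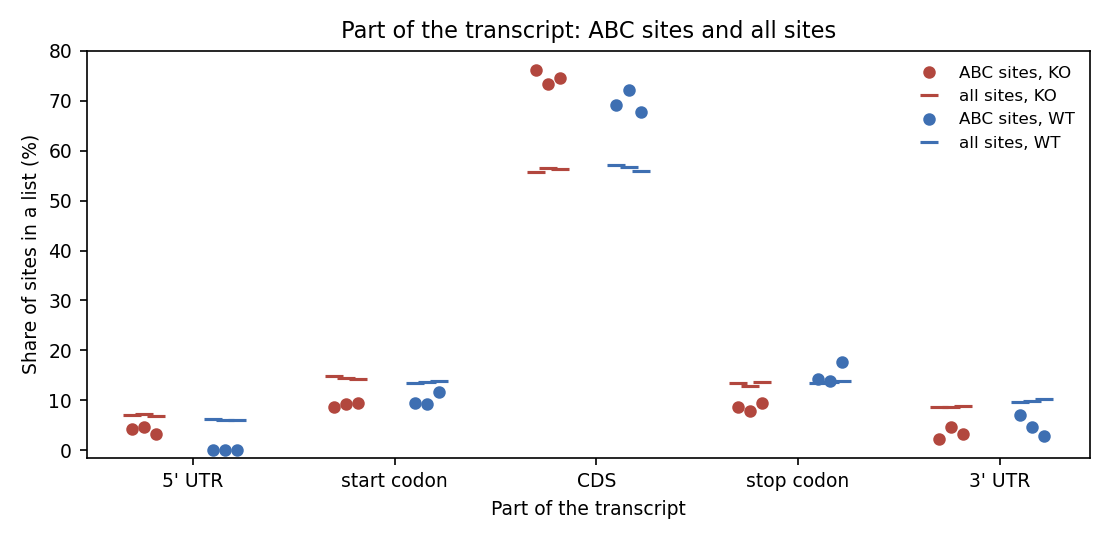
Share of sites in 5 parts of the transcript (horizontal axis) in each list, in percent (vertical axis), for ABC sites (points) and for all sites of the same list (dashes), KO to the left and WT to the right. ABC points lie above the dashes for the CDS, and KO points lie at 7.81 to 9.52 and WT points at 14.0 to 17.6 for the stop codon.

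Genes that work with the family were examined as 9 lists of 65 genes in all, of which 50 had a site. A site in all KO and no WT list was found for 8 of the 50 (16%, against 14.9% of all genes), in all WT and no KO list for 5 (10%, against 11.8%), and in all 6 lists for 24 (48%, against 39%). Site numbers in every KO list exceeded those in every WT list for 12 (24%, against 23.7%) and lay below them for 9 (18%, against 23.1%). In the peptide-loading pathway, TAP1, an ABC transporter with another symbol, had 1, 2 and 1 sites in KO lists and none in WT lists, and so had its partner TAPBP and the chaperone CALR with 1 in each KO list. The peptidase gene ERAP2 had 2 sites in each WT list and none in KO lists. TAP2 had a site in all 6 lists and CFTR in none. LMBRD1, which works with ABCD4 in cobalamin export, had 1, 2 and 2 sites in KO lists and none in WT lists.

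Of the peroxisomal partners of ABCD proteins, PEX16 and PEX19, which insert peroxisomal membrane proteins, had sites in KO lists alone, and the import factor PEX13 and the acyl-CoA synthetase ACSL1 in WT lists alone. Among lipid efflux genes, LCAT, which esterifies cholesterol on lipoproteins, was found in KO lists alone and the nuclear receptor RXRB in WT lists alone, and 5 of the 11 with a site were in all 6 lists. Of the ribosome partners of ABCE1 and ABCF proteins, 6 of the 8 with a site were in all 6 lists, among them PELO and HBS1L, which rescue stalled ribosomes, and EIF2S1, a subunit of eIF2, had 2, 1 and 1 sites in WT lists and none in KO lists.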

How the data were processed

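Per the submitters' processing notes, cutadapt 1.9.3, HISAT2 2.0.4 and hg38 were used, with no role stated. Per the file headers, peak names carry the prefix of MACS, of unstated version, and the authors deposited a separate list for each IP and its input, without pooling. Each deposited site has a score, the negative log10 of its p-value times 10 per the file headers (at least 50), a fold enrichment of IP over input, the authors' ratio (at least 2), and a false discovery rate in percent, by the authors. How sites were limited to messenger RNA is not stated.

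Members and lists were chosen with earlier results of these data known. Genes were found by the deposited name, and updating symbols through RefSeq (GRCh38.p14) changed none of the 24. In KO replicate 1 the coordinates with their transcript part and the gene columns stand in different row orders, and 4.45% of rows lay on their gene's chromosome. They were rejoined on equal score and length, ties being settled by chromosome, which paired 13340 of 13818 rows; 478 stayed unpaired, 1 of them an ABCC3 site. Tested on simulated data, shuffled WT lists were joined at 99.0% to 99.3%, and 100% of joined rows were right. KO replicate 1 left a larger share of rows unpaired than these shuffled lists, so that accuracy may not carry over to it.

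Coordinates are those of the files, with starts counted from 1. Although hg38 is named, 1 to 3 ABC sites per list lay in their gene's GRCh38 span, so the coordinates are not of that build, and no source used here names another. Sites of the 6 lists that overlapped by at least 1 base were merged into regions. Strand came from RefSeq's promoter table or, for ABCC1, from its start and stop codon sites. Values per list were compared by a two-sided exact permutation test over 3 KO and 3 WT lists in Python 3.11.15 with pandas 2.3.3. Members found in 1 genotype alone, in all 6 lists, without overlap in site number, or among the 3 highest by mean fold percentile in a genotype were to be named with values, and the others are named as well, except that the values of 2 members are not reported here, although they stay in all counts. The 17 rows emptied in the copies used here were not analysed here. Equal replicate numbers were not used to pair the lists in this test.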

Additional observations from a re-analysis of the deposited data

How the results depend on the processing

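All 4 differences per list (ABC genes, ABC sites, their share of sites and the CDS share) stayed above 0 under every alternative run. Leaving out 1 replicate, ABC sites differed by 15.3 to 23.8, their share by 0.0970 to 0.112 percentage points, genes by 1.83 to 3.33 and the CDS share by 4.14 to 6.36. With lists of equal length the difference was 11.7 sites, and without ABCC5, an alternative chosen after seeing the data, 12.3. Members in KO lists alone numbered 4 to 6 and KO regions 30 to 45 when 1 replicate was left out, the upper values without KO replicate 1, the shortest list. With a list left out this call asks less, so the number of members could not fall below 4. These ranges therefore do not measure how stable the counts are. Members in KO lists alone numbered 3 when a score of at least 100 was required, and 3 when a fold of at least 4 was. Regions in KO lists alone against those in WT lists alone numbered 20 and 21 with a score of at least 100, and 22 and 20 with lists of equal length. They numbered 24 and 19 with a fold of at least 4, and 26 and 17 with sites of at least 50 bases. The same counts over all genes and all regions were not computed under the alternatives. Members in WT lists alone numbered 1 in place of 2 with sites of at least 50 bases, which removes the ABCE1 site by construction, and 1 without members that have a pseudogene (chosen after seeing the data). With KO list 1 rows as they stand, ABC regions in KO lists alone numbered 49 and those in all 6 lists 18, since its gene names then sit on unrelated coordinates. Single differences turned to -0.333 for ABCA1 (score of at least 100, or equal lengths), for ABCB8 (score of at least 100) and for ABCC4 (at least 50 bases); the cause was not tested.

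As a replicate block, the test of pairs by replicate number gave exact p = 0.25, the smallest 3 pairs allow, for genes, sites, share and CDS share alike. Deviations of same-numbered lists correlated at -0.0845, 0.00274 and -0.0779 over 10240 genes. Those of differently numbered lists correlated at -0.0375 to 0.104. Such correlations of site numbers cannot show whether same-numbered lists were prepared together, and the labels give them only a number.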

Other observations

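Several enzymes of heme synthesis, a pathway in which ABCB10 and ABCB6 take part, differed in every KO list from every WT list in their number of sites, and they were singled out after their values were seen. ALAS1, the rate-limiting enzyme, had 0, 0 and 1 sites in KO lists, against 9, 7 and 7 in WT lists. CPOX had 1 site in each KO list and 3 in each WT list, and FECH, the last enzyme, had 1 in each KO list and 2 in each WT list. SLC25A37, the mitochondrial iron importer, had 1 site in each KO list and none in WT lists. Of all genes, 23.1% had fewer sites in every KO list than in any WT list and 23.7% more.

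Some ABC sites were very short: ABCA4 had sites of 4 and 3 bases in WT replicates 1 and 2, with folds of 173 and 104, and ABCB9 had a 5' UTR site of 7 bases in KO replicates 1 and 2. The median ABC site was 122, 142 and 149 bases long in KO lists and 120, 138 and 129 in WT lists, against 171 to 178 for all sites in KO and 162 to 168 in WT lists.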
